A study of Mus musculus with 4 samples.

Results

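The 6 entries of a mouse miRNA array described here are mmu-miR-714, mmu-miR-721, mmu-miR-1896, mmu-miR-6392-3p, mmu-miR-5107-5p and mmu-miR-1224-5p, out of 1247 miRNAs on the array. They were chosen by their signal itself: bright in the vehicle arrays and far lower in the arrays of mice given CL-316243 (CL). The size of that difference is therefore a description, and no test of it is given for these 6 miRNAs. A fall means here a lower mean in CL than in vehicle. The scanner software called 362 of the 1247 miRNAs detected on each of the 4 arrays, all 6 included. As the 6 were chosen partly for brightness, nothing is read from this. They are among the 425 miRNAs that were tested. The scanner software found these 425 on both arrays of the vehicle group, of the CL group or of both.

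The arrays measured total RNA of the stromal vascular fraction (SVF) of visceral white adipose tissue (visWAT), the cells that remain when mature adipocytes are floated off after collagenase digestion, from 8-week-old female mice. The vehicle group (2 arrays) received PBS for 3 days, and the CL group (2 arrays) received 1 mg/kg of CL-316243, a β3-adrenoceptor agonist that drives lipolysis and browning of fat, for the same 3 days. Each array held RNA pooled from 5 mice, so the spread between arrays is that of pools and not of animals. The strain is written as C57/BL6 in the protocols, while the strain field counts up by 1 from sample to sample; the injection route is subcutaneous in the labels and intraperitoneal in the study's methods. Row 1 of the slide held the vehicle arrays and row 2 the CL arrays, and slide row and treatment cannot be told apart. Columns 3 and 4 each held 1 array of each group.

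A mature miRNA guides the Argonaute protein to messenger RNAs mainly through its seed, the bases from position 2 to 8, and most miRNAs are cut from the stem of a hairpin by Drosha and Dicer. Mirtrons skip the Drosha step because splicing of a short intron releases the hairpin, and miR-1224 is one of the mammalian examples. In adipose tissue, miRNAs of the miR-130 family, whose seed miR-721 shares, are known to repress Pparg, the master regulator of adipocyte differentiation. No role in adipose cells is given here for the other entries.

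The mature sequences show that the 6 entries are not a family. Written 5′ to 3′ from RefSeq, with the seed in capitals, they are:

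mmu-miR-721: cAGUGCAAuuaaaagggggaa

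mmu-miR-1896: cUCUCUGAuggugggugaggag

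mmu-miR-6392-3p: gACGCAGGuuugccggguccucu

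mmu-miR-1224-5p: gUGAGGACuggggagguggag

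The 4 seeds differ from one another. Outside the seed, the longest run of G was 5 bases in miR-721, 4 in miR-1224-5p and 3 in both miR-1896 and miR-6392-3p. How common a run of 3 is among mature miRNAs was not counted, so such runs are not read as a shared trait. G made up 33.3% of miR-721, 45.5% of miR-1896, 34.8% of miR-6392-3p and 61.9% of miR-1224-5p, against a median of 26.9% over 1679 mature miRNAs in the RefSeq table. C made up 9.52%, 13.6%, 30.4% and 4.76% of them in the same order, against a median of 22.7%. A run of GGGG, searched on the miRNA strand, occurs in 188 of the 1679 (11.2%), and in miR-721 and miR-1224-5p among these 4.

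On the array each miRNA is caught by short DNA probes complementary to its 3′ part, so that G in the miRNA becomes C in the probe. The longest probes of 5 of the entries are shown next, 5′ to 3′ as the files give it, with C in capitals, because these are the bases that were read as a common trait of the group:

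mmu-miR-714: gCgaCCgaCCggCC

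mmu-miR-721: ttCCCCCttttaatt

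mmu-miR-1896: CtCCtCaCCCaCCa

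mmu-miR-6392-3p: agaggaCCCggCa

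mmu-miR-1224-5p: CtCCaCCtCCC

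These probes pair with positions 7 to 21 of miR-721, 9 to 22 of miR-1896, 11 to 23 of miR-6392-3p and 11 to 21 of miR-1224-5p. Apart from 2 bases at the end of the seed of miR-721, the array therefore read the 3′ part and not the seed. No other mature miRNA in the RefSeq table holds the complete target of any of the 6 longest probes. The table holds no mature sequence of miR-714 or miR-5107-5p themselves, so the look-up says little for them. The share of C in the longest probe was 72.7% for miR-1224-5p, 64.3% for miR-1896, 50% for both miR-714 and miR-5107-5p, 33.3% for miR-721 and 30.8% for miR-6392-3p. The median over the 425 tested miRNAs was 31.8% (quartiles 21.1 and 42.9). A description as C-rich thus holds for 4 of the 6 probes, whereas those of miR-721 and miR-6392-3p lie next to the median. The longest probes were also short, at 11 to 15 bases, against a median of 17 over the tested miRNAs (quartiles 14 and 19). In general, a probe is made short by the array's designer where its bases pair strongly with the target. G and C together made up 33.3% of the longest probe of miR-721 and 64.3 to 85.7% of the others. The median over the tested miRNAs was 52.9%. Why each of these probes is short was not tested.

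In the GRCm38.p6 annotation of RefSeq, the 4 miRNAs with an entry come from 4 chromosomes. The miR-721 hairpin lies at chr5:136375716-136375803 on the minus strand, with the mature miRNA at chr5:136375777-136375797, inside the span of Cux1, a homeobox transcription factor gene. The miR-1896 hairpin lies at chr13:21445160-21445240 on the plus strand, with the mature miRNA at chr13:21445209-21445230, within the spans of the long non-coding RNA 4930470G03Rik and of Zscan26, which codes for a zinc finger protein. The miR-6392 hairpin lies at chr15:84168270-84168377 on the plus strand, with the 3p arm at chr15:84168334-84168356, inside the span of Pnpla3, a gene for a lipid droplet protein expressed in liver and fat. The miR-1224 hairpin lies at chr16:20604452-20604536 on the plus strand, with the 5p arm at chr16:20604452-20604472, inside the span of Vwa5b2. The files list the probes of miR-714 as unmapped, as they do for 10 of the 1247 miRNAs.

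The folding energy of these hairpins was computed as a further trait that the choice did not use. Per 100 bases, the minimum free energy was -50.4 kcal/mol for miR-1224, -44.2 for miR-1896 and -41.2 for miR-6392, against a median of -40.6 over 1005 hairpins (quartiles -46.5 and -34.2). The last 2 lie between the quartiles, whereas miR-1224 lies beyond the quartile of more stable hairpins, with 84.6% of hairpins less stable. The hairpin of miR-721 reached only -17.6, and 0.0995% of the 1005 hairpins were less stable. The low predicted stability was thus a trait of miR-721 and was not shared by the other 3.

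The signal of each miRNA is given as the normalized log2 signal, a relative brightness that can be compared between arrays for 1 miRNA but not between miRNAs. The SVF is a mixture, and in its bulk RNA fewer cells of a type and less RNA per cell cannot be told apart. MiR-714 read 8.41 and 9.15 in vehicle and 5.64 and 5.77 in CL. Its vehicle mean was 8.78 ± 0.52 and its CL mean 5.71 ± 0.09 (SD, n = 2 arrays each), a log2 difference of -3.07 (SE 0.28, from the limma fit), or 8.42-fold lower in CL. It was the largest fall of the 425 tested miRNAs, and its lowest vehicle array lay 2.64 log2 units above its highest CL array.

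MiR-721 read 7.55 and 8.17 in vehicle and 5.84 and 6.00 in CL. The means were 7.86 ± 0.43 and 5.92 ± 0.11 (SD, n = 2 each), a log2 difference of -1.94 (SE 0.24), or 3.84-fold lower in CL, and the groups were 1.55 log2 units apart at their nearest arrays. This was the second largest fall of all tested miRNAs.

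MiR-1896 and miR-6392-3p had nearly the same difference. MiR-1896 read 9.98 and 10.82 in vehicle and 8.26 and 8.78 in CL, with means of 10.40 ± 0.59 and 8.52 ± 0.37 (SD, n = 2 each) and a log2 difference of -1.88 (SE 0.35). MiR-6392-3p read 7.2 and 8.14 in vehicle and 5.69 and 5.88 in CL, with means of 7.67 ± 0.67 and 5.78 ± 0.13 (SD, n = 2 each) and a log2 difference of -1.88 (SE 0.34). Both were 3.69-fold lower in CL, and neither overlapped between groups, with gaps of 1.21 and 1.32 log2 units.

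MiR-5107-5p read 10.78 and 11.22 in vehicle and 9.73 and 9.88 in CL. Its means were 11.00 ± 0.32 and 9.80 ± 0.10 (SD, n = 2 each), a log2 difference of -1.20 (SE 0.19), or 2.29-fold lower in CL. MiR-1224-5p, the mirtron product, read 12.21 and 12.70 in vehicle and 11.33 and 11.25 in CL. Its means were 12.46 ± 0.35 and 11.29 ± 0.05 (SD, n = 2 each), a log2 difference of -1.16 (SE 0.20), or 2.24-fold lower in CL. The gaps between the nearest arrays of the groups, 0.90 and 0.88 log2 units, were the smallest of the 6.

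**Figure D1:**
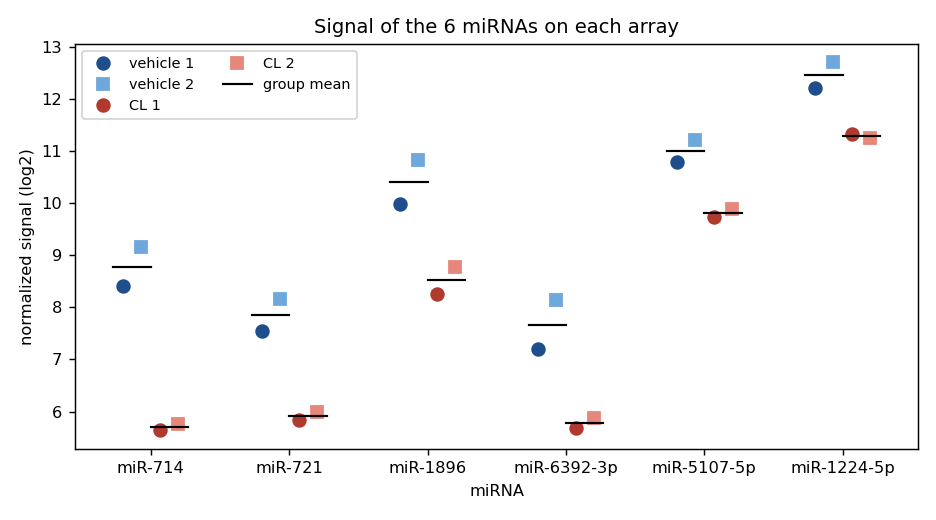
Normalized log2 signal (y axis) of the 6 miRNAs (x axis) on the 4 arrays; circles are replicate 1, squares replicate 2, blue is vehicle, red is CL, and black bars are group means (n = 2). In each of the 6, the red points lie below the blue ones, by 2.64 log2 units at the nearest for miR-714 and by 0.88 for miR-1224-5p.

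Across the array such a separation was common, but rarely so large. Of the 425 tested miRNAs, 148 (34.8%), the 6 included, had no overlap and lower values in CL, and 17 (4%) also had a log2 difference of -1 or lower. The median log2 difference of the 6 was -1.88, while that of the 425 was -0.01 (quartiles -0.33 and 0.34). In the limma fit across all 425 miRNAs, 69 (16.2%) were lower in CL at an unadjusted p under 0.05, and 0 (0%) at a Benjamini-Hochberg adjusted p under 0.05. The 6 were among the 69, from which nothing is read because they were chosen on this contrast.

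The choice left out others with falls of similar size. Counting miR-1224-5p, 12 falls were at least as large as its own, and 6 of these 12 belonged to other miRNAs: miR-124-3p at -1.68, miR-6386 at -1.47, miR-126-3p at -1.37, miR-3093-3p at -1.33, miR-10b-5p at -1.31 and miR-139-5p at -1.26. Of those, miR-6386 and miR-3093-3p had a longest probe with at least 50% C. At the edge, miR-5107-5p (-1.20) and miR-1224-5p (-1.16) were followed by miR-673-5p at -1.15, which read 5.42 and 5.99 in vehicle and 4.32 and 4.79 in CL.

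Every probe of the 6 miRNAs was lower in CL. The array carries probes of stepped length for a miRNA, 4 for miR-714 and miR-721 with 10 spots each, and 2 for each of the others with 20 spots each. All 16 probes had a lower mean in CL, against 523 of the 995 probes of tested miRNAs (52.6%). When each spot was set against the same spot of the array design on the other array in its slide column, all 436 usable pairs were lower in CL, against 15574 of 31214 pairs (49.9%) over all tested miRNAs. Spots and probes of 1 miRNA read the same RNA, so these counts do not speak of the animals. The 6 were chosen for a large fall in the signal of these same spots, so the counts are a description and support nothing. The coefficient of variation between spots of 1 probe was 1.07 to 9.32% (median 5.15).

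The signal of miR-714 in vehicle was higher with each step in probe length. From 11 to 14 bases they are as follows, with C in capitals:

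miR-714, 11 bases: gCgaCCgaCCg

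miR-714, 12 bases: gCgaCCgaCCgg

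miR-714, 13 bases: gCgaCCgaCCggC

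miR-714, 14 bases: gCgaCCgaCCggCC

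The median spot of the 14-base probe, in scanner units before background correction, read 1675 and 2464 in vehicle and 147 and 180 in CL, a normalized difference of 13.3-fold. The 13-base probe read 1084 and 1648 in vehicle and 112 and 130 in CL, or 12.1-fold lower. The mean of the negative control spots was 31.7 to 38.6 on the 4 arrays, so these CL readings stood above background.

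The shorter probes reached the background in CL. The 12-base probe read 188 and 245 in vehicle and 46.9 and 41.2 in CL, and the 11-base probe read 70.7 and 80.6 in vehicle and 39.7 and 32.4 in CL. None of their spots (0 of 10 for each probe and array) was well above background on a CL array, so that their falls have only a bound, at least 5.64-fold and at least 1.69-fold. The normalized log2 differences of the 13-base and 14-base probes were -3.59 and -3.73, and no order in length is read from the 2 bounds. The value of -3.07 for miR-714 as a whole includes both probes at background.

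The other miRNAs had all 40 spots well above background on each of the 4 arrays. The 4 probes of miR-721, from 12 to 15 bases, gave nearly equal log2 differences of -1.99, -1.97, -1.95 and -1.90, and the 2 of miR-1896 gave -1.85 and -1.90. The longer probe of miR-6392-3p had the larger difference, -2.02 against -1.68 for the shorter one. In contrast, the longer probe of miR-5107-5p gave -1.03 against -1.33 for the shorter, and that of miR-1224-5p gave -0.79 against -1.42.

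**Figure D2:**
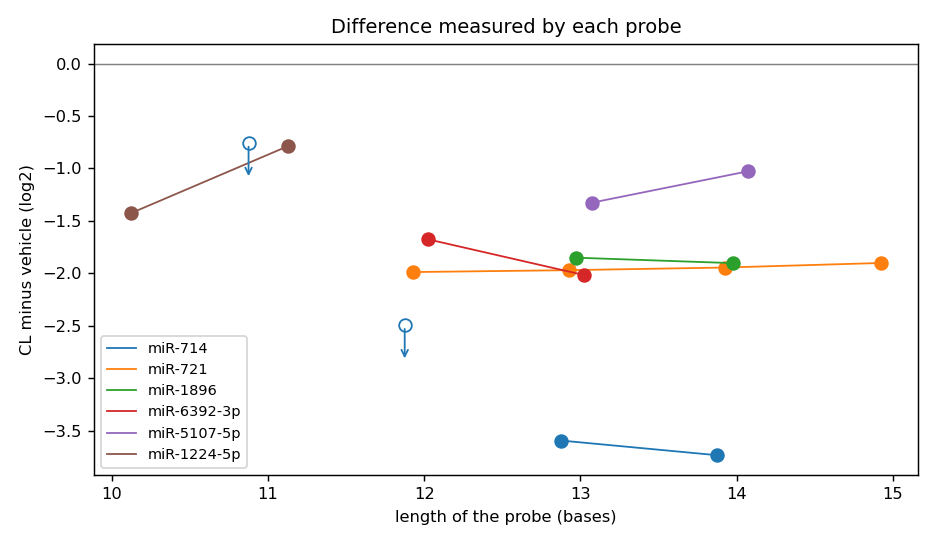
Normalized log2 difference, CL minus vehicle (y axis), of each of the 16 probes against its length in bases (x axis), with a line joining the probes of 1 miRNA; open circles with an arrow mark probes with no spot well above background on the CL arrays, drawn at their bound. The miR-714 probes of 13 and 14 bases lie at -3.59 and -3.73, while those of miR-721 stay between -1.99 and -1.90.

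The 6 miRNAs were lower in CL in both columns of the slide, as were 163 of the 425 tested miRNAs with the 6 included. Their difference was larger in column 4, and 234 of the 425 had a larger fall or a smaller rise there. Within column 3 (CL 1 minus vehicle 1) the log2 differences were -2.77 for miR-714, -1.71 for miR-721, -1.73 for miR-1896, -1.51 for miR-6392-3p, -1.05 for miR-5107-5p and -0.88 for miR-1224-5p. Within column 4 (CL 2 minus vehicle 2) they were -3.38, -2.17, -2.04, -2.26, -1.35 and -1.45 in the same order. With the slide column as a block, limma called 40 of the 425 miRNAs (9.41%) lower at an adjusted p under 0.05, the 6 included, and again nothing is read from their place among them.

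The larger difference in column 4 went with the vehicle arrays, which differed from each other more than the CL arrays did. All 6 miRNAs were brighter on the second vehicle array, by 0.74 log2 units for miR-714, 0.61 for miR-721, 0.83 for miR-1896, 0.94 for miR-6392-3p, 0.45 for miR-5107-5p and 0.49 for miR-1224-5p. Over the 425 tested miRNAs the median of this difference was 0.07 (quartiles -0.20 and 0.31), and 236 (55.5%) were brighter on the second vehicle array. The range was -1.74 to 0.94, so the 0.94 of miR-6392-3p was the largest rise, while some falls were larger in size. Between the CL arrays the 6 differed by -0.07 to 0.52. Over the 425 the range was -1.26 to 0.52, so the 0.52 of miR-1896 was the largest rise but not the largest difference in size. For each of the 6, the gap between the groups exceeded the difference between the vehicle arrays, by a ratio of 1.40 for miR-6392-3p to 3.57 for miR-714. The 6 were chosen for large falls and this ratio was not counted over the 425, so nothing is read from it. The part of this difference between vehicle arrays in the falls was not tested.

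**Figure D3:**
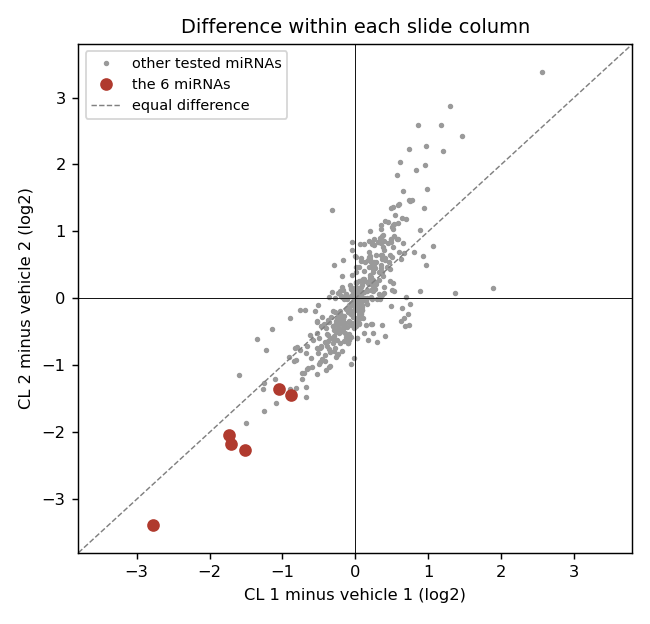
Log2 difference in slide column 4 (CL 2 minus vehicle 2, y axis) against that in column 3 (CL 1 minus vehicle 1, x axis) for the 425 tested miRNAs, with the 6 in red and a dashed line of equal difference. All 6 lie in the lower left and below the dashed line, with miR-714 farthest out at -2.77 and -3.38.

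Over the whole array, the difference went with the C share of the probe and with its length. Among tested miRNAs other than the 6, the 64 with at least 50% C in the longest probe had a median log2 difference of -0.37 (quartiles -0.68 and -0.19), and 46 of them (71.9%) were lower in CL with no overlap. The 204 whose C share was under the 30.8% of miR-6392-3p had a median of 0.20, and 39 of them (19.1%) were separated in that way. The 155 with a longest probe of at most 15 bases had a median of -0.22, and the 264 with longer probes one of 0.15. MiRNAs that share a probe composition are not replicates of each other, so these are descriptions with no test.

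The same miRNAs also differed between the vehicle arrays. The second vehicle array was brighter by a median of 0.42 log2 units for the 64 miRNAs with at least 50% C, and dimmer by a median of 0.12 for the 204 with the lowest C share (-0.12). The C share thus went with a difference between arrays of the same group as well. The trend removed below joins C share with G share and probe length, so the part of C share in the falls was not tested.

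Removing a linear trend on probe composition and length made the difference smaller in 5 of the 6, most of all in miR-1224-5p, and left that of miR-721 nearly as it was. Before removal, 2 of the 64 others with at least 50% C had a log2 difference of -1 or lower, while the 4 such members, miR-714, miR-1896, miR-5107-5p and miR-1224-5p, had a median of -1.54. The members were chosen for large falls, so nothing is read from this contrast. When each array's linear trend on C share, G share and probe length, fitted without the 6, was removed, miR-714 remained at -2.73, miR-721 at -1.98, miR-6392-3p at -1.67, miR-1896 at -1.55 and miR-5107-5p at -0.95. MiR-1224-5p went from -1.16 to -0.59. The median of the 64 others became -0.07.

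Of the 215 other tested miRNAs with a C share of at least 30.8%, 143 had a lower mean in CL, and their median log2 difference was -0.20. In 103 of them (47.9%) the CL arrays were lower with no overlap, and in 49 higher with no overlap. The highest differences among them were miR-34b-5p at 1.70, miR-214-3p at 0.95, miR-379-5p at 0.92, miR-196a-5p at 0.80 and miR-135a-1-3p at 0.78, and the last of these has a probe of 13 bases with 53.8% C. The lowest in this class outside the 6 were miR-124-3p, miR-6386, miR-3093-3p, miR-673-5p and miR-5128, from -1.68 to -1.12.

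**Figure D4:**
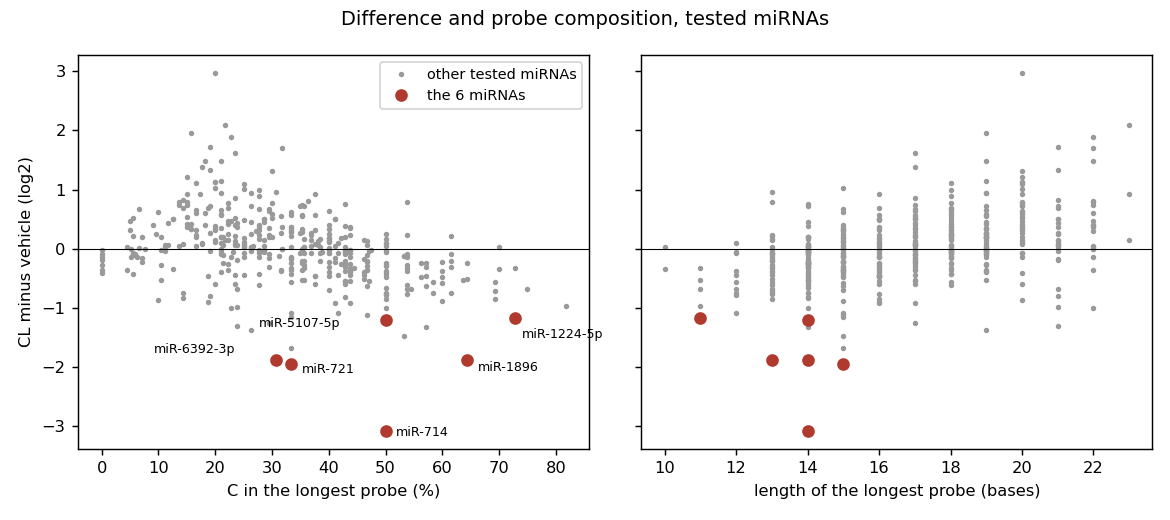
Log2 difference, CL minus vehicle (y axis), of the 425 tested miRNAs against the percent of C in the longest probe (left) and its length in bases (right), with the 6 in red and named on the left. Points at high C share and short length lie mostly below 0, and miR-714, miR-721, miR-1896 and miR-6392-3p lie below all others.

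Relatives of the 6 by seed or by probe were looked up where they were on the array. The 6 were chosen for large falls, so a smaller difference in a relative supports nothing. MiR-721 shares its seed, AGUGCAA, with 6 other miRNAs on the array, 3 of which were tested. MiR-130a-3p, the best known of them in adipocyte differentiation, read 10.04 and 9.95 in vehicle and 9.92 and 10.01 in CL, a log2 difference of -0.03 (SE 0.12). MiR-301a-3p differed by 0.44 (SE 0.28) and miR-130b-3p by 0.37 (SE 0.13), and miR-130c, miR-6341 and miR-6389 were not tested. None of the 3 tested miRNAs with the seed of miR-721 was near its difference of -1.94, for which miR-721 had been chosen. Among miRNAs on the array with a RefSeq sequence, no other carried the seed of miR-1896, miR-6392-3p or miR-1224-5p.

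The opposite arms of the same hairpins were not detected. MiR-6392-5p, miR-5107-3p and miR-1224-3p were called detected on 0 of 4 arrays, with 0 to 2 of 40 spots well above background, so that the fall of the other arm could not be compared within a hairpin.

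Cross-reading between similar probes can be looked at through miRNAs whose probes share bases with those of the 6. The longest probe of miR-714 shares 10 consecutive bases with that of miR-341-3p, which read 5.06 and 5.11 in vehicle and 5.22 and 5.22 in CL, a log2 difference of 0.14 (SE 0.11). The longest runs shared by the other 5 were 8 or 9 bases. MiR-5107-5p shared runs of 8 or 9 bases with 4 tested miRNAs, whose log2 differences were -0.21 for miR-1906, -0.27 for miR-3110-3p, -0.56 for miR-5130 and -0.74 for miR-709. The partner of miR-1224-5p, miR-1940, had -0.55, and that of miR-1896, miR-551b-5p, -0.03. Those of miR-721 had -0.03 (miR-130a-3p) and -0.27 (miR-211-3p), and that of miR-6392-3p was not tested. Only probes of miRNAs on the array were compared, and binding of other RNA was not tested.

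The cell types of the SVF were checked by their known miRNAs. MiRNAs known to mark leukocytes (4 of 4), endothelium (2 of 2), mural cells (2 of 2), mesenchymal stroma (3 of 3) and red cells (2 of 2) were detected on all 4 arrays. The hepatocyte marker miR-122-5p and the neuronal miR-9-5p were detected on 0 arrays, and the 3 skeletal muscle markers on all 4. Neuronal miR-124-3p was detected on all 4 arrays with all 40 spots well above background, reading 9.26 and 9.94 in vehicle and 7.76 and 8.08 in CL, although its probe shares at most 5 consecutive bases with those of the 6.

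The summed signals of the 5 groups of SVF cell types differed between vehicle and CL without overlap, and those of the hepatocyte and skeletal muscle markers overlapped. The sum of the neuronal markers, which should be absent, did not overlap either, at 9.29 to 9.96 in vehicle and 7.85 to 8.16 in CL. Each sum was taken over unlogged signals, so bright miRNAs weigh most in it. In the endothelial sum, miR-126-3p read 13.91 and 13.79 in vehicle, against 7.14 and 6.86 for miR-126-5p. Brightness cannot be compared between miRNAs, so a sum is no count of cells. Separation was common over the array: 148 of the 425 tested miRNAs were lower in CL without overlap. Of the 419 other than the 6, 162 were higher in CL without overlap. The endothelial sum was 13.80 to 13.92 on the log2 scale in vehicle and 12.33 to 12.66 in CL, and the mural sum 9.07 to 9.31 in vehicle and 8.62 to 8.73 in CL. The leukocyte sum was higher in CL, at 11.70 to 11.73 against 10.75 to 11.17, although its 4 markers ranged from -0.89 to 2.09 in log2 difference. Also higher in CL were the mesenchymal sum, at 11.73 to 11.79 against 10.37 to 10.95, and the red cell sum, at 13.80 to 14.04 against 12.99 to 13.21. The part of cell composition in the falls of the 6 miRNAs was not tested.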

How the data were processed

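One-colour Agilent mouse miRNA arrays were read from the deposited scanner files, whose Cy3 intensity per spot the authors extracted with Feature Extraction 10.7.1.1 per the file headers. The authors also deposited a table of log2 values, used here as an alternative; its scale and centring are not given in the sources used here. Mean spot intensities were corrected by normexp over all spots without an offset, control and outlier spots (57 of the 960 readings of the 6 miRNAs) were left out, and values were quantile normalized, taken to log2 and summarised per miRNA by median polish, after the robust multi-array method the study names. The test, over the 425 of 1247 miRNAs that the scanner software called detected on both vehicle or both CL arrays, was made with limma 3.58.1 in R 4.3.3, with Benjamini-Hochberg adjustment. The fit was checked on simulated data with independent noise for each miRNA. That noise lacks the trends on probe composition seen between arrays here, so the check does not cover them. No spot was saturated, 386 to 431 miRNAs were detected per array, and 2 arrays a group limit the precision.

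Probes were described from their median spot, and a probe with no spot well above background in CL was given a bound. The bound sets the vehicle mean over the CL mean of, per array, the higher of the probe's own value and the lowest value well above background. Sequences and places came from the RefSeq tables (GRCm38.p6), in which 4 of the 6 miRNAs matched; the place of miR-5107 is not reported here. The header names another build, so no position from the files was used. Hairpins were folded with ViennaRNA 2.7.2. The members, the marker lists and the other named miRNAs were chosen with earlier results of these data known. Besides the 6, these are their opposite arms, miRNAs sharing seed or probe bases, those next in the order of falls, and the 5 lowest and 5 highest of like C share.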

Additional observations from a re-analysis of the deposited data

How the results depend on the processing

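All 6 miRNAs kept both CL arrays below both vehicle arrays under each other background correction, normalization and summary over spots, in the deposited table and with the trend on probe composition removed. They were chosen for large falls, so nothing is read from this. In the main setting 148 of the 425 tested miRNAs (34.8%) were separated in that way, and their share under the other settings was not counted. Leaving out an array or adding the replicate block cannot undo such a separation, and the filters on detection do not alter it. The median log2 difference of the 6, -1.88, became -1.35 when normexp used local background plus an offset of 50. It ranged from -2.27 without vehicle replicate 1 to -1.44 without vehicle replicate 2. MiR-714 ranged from -1.89 with the offset of 50 to -3.77 in the deposited log2 table, and MiR-1224-5p from -1.41 without vehicle replicate 1 to -0.59 with the trend on probe composition removed. The counts over all tested miRNAs depended on the setting. At an adjusted p under 0.05, 0 were lower in CL in limma, against 47 without normalization, 24 when arrays were centred on the median, 21 from the scanner's total per miRNA, 5 in the deposited table, 22 with the trend removed and 1 (without vehicle replicate 2) to 116 (without vehicle replicate 1) when 1 array was left out; without CL replicate 1 there were 9, and without CL replicate 2 there were 15. At an unadjusted p under 0.05 the count of 69 became 44 with the 75th percentile over all probes, and 27 (without CL replicate 1) to 134 (without vehicle replicate 1), with 39 without CL replicate 2. The 17 with a log2 difference of -1 or lower became 11 with the offset of 50, 26 with the 75th percentile over detected probes, 73 with the scanner's total and 71 in the deposited table, and 11 (without vehicle replicate 2) to 29 (without vehicle replicate 1) when 1 array was left out. The cause was not tested.

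The replicate numbers go with the slide columns and are not stated to pair the arrays; deviations of same-numbered arrays correlated at 0.12 across 425 miRNAs, which are not independent. With the replicate block, 40 miRNAs were lower in CL at an adjusted p under 0.05, and the median of the 6 stayed at -1.88. Where 1 array of a group was left out, the lone array was assumed to vary like the other group.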
